A study of Mus musculus with 11 samples.

Results

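The vesicle fusion and release genes are the synaptotagmins, syntaxins, syntaxin-binding proteins, VAMPs, complexins, synapsins and Rab3 genes, together with the SNAP-25 family, the Munc13 genes and the NSF and SNAP disassembly genes. Members were taken by matching gene symbols. The rule found 71 genes of the 55421 listed in each library, among them the pseudogenes Vamp7-ps and Stxbp3-ps. The counts of 57 were high enough to test, 13 others had at least 1 read, and Syt8 had 0 reads in every library. All 71 matched the RefSeq gene table.

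Neurotransmitter leaves a neuron when a vesicle fuses with the plasma membrane. A vesicle SNARE (a VAMP) zips together with a syntaxin and a SNAP-25 protein on the target membrane, with a Sec1/Munc18 protein (Stxbp) holding the syntaxin, Munc13 priming the vesicle, complexin clamping the partly formed bundle and a synaptotagmin sensing calcium. NSF and its SNAP adaptors then pull the spent bundle apart, synapsins tether vesicles in reserve, and Rab3 marks vesicles ready to dock. Purkinje cells use this machinery to release GABA onto neurons of the deep cerebellar nuclei, and every cell uses related syntaxins and VAMPs to move cargo through the Golgi, endosomes and lysosomes.

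Ribosome-bound RNA was sequenced from whole cerebellum of mice at postnatal day 56. The 4 knockouts were Pcp2Cre;Tie2flox/flox;Rpl22HA/HA and the 7 controls Pcp2Cre;Rpl22HA/HA, so both groups carried the Cre and the tagged ribosomal protein Rpl22HA, and only the knockouts carried the floxed alleles of Tie2, an angiopoietin receptor encoded by Tek. Cre is driven by the Pcp2 promoter, which is active in Purkinje cells, and tagged ribosomes were pulled down from the whole tissue with an antibody against HA. The comparison asks what loss of Tie2 in Purkinje cells does to the RNA on their ribosomes. Each library comes from 1 tagged animal. Batch 1 held knockouts F371 and M374 with control M379, batch 2 knockout M390 with control M386, and batch 3 knockout M456 with 5 controls.

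Knockout libraries held 2.58 to 4.20 M reads in genes and control libraries 4.09 to 5.14 M. Tek itself had 21 reads over the 4 knockouts and 93 over the 7 controls, 0 to 14 and 0 to 40 per library, too few to check the labels. Its log2 fold change was 0.87 ± 0.95 (SE; adjusted p = 0.52 by edgeR's quasi-likelihood test with the Benjamini-Hochberg method). Levels are given as CPM, the counts of a gene scaled for library size. Purkinje markers were well represented, at a summed 4524 to 6318 CPM in the knockouts and 4597 to 5283 CPM in the controls, with 4 of 10 higher (Calb1, Car8, Pvalb and Foxp2) and 0 lower. Their median log2 fold change was 0.18. Markers of other cells were present too, and 0 of these were lower in the knockouts. Granule cell markers summed to 802 to 2247 CPM against 627 to 1225 CPM, with 10 of 16 higher and 0 lower. Bergmann glia and astrocyte markers summed to 929 to 1811 CPM against 827 to 1082 CPM (8 of 12 higher, 0 lower), and oligodendrocyte markers to 298 to 984 CPM against 258 to 690 CPM (4 of 11 higher, 0 lower). Of the other lists, 3 of 8 interneuron and unipolar brush cell markers, 3 of 7 microglia markers, 1 of 6 endothelial and mural markers and 1 of 3 choroid plexus markers were higher. Within each list, none of the markers was at 0 in every library of a group. In tissue pull-downs of this kind, fewer cells of a type and less RNA per cell cannot be told apart.

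Upstream sequence was looked at for the members because they are presented as 1 functional set. RefSeq gave 67 promoters for 54 member genes, and the 250 bases before each start were searched on both strands for 4 motifs in GRCm38.p6. The cyclic AMP response element TGACGTCA was in 2 of the 67 (2.99%), against 1.55% of all 32851 promoters. The GC box GGGCGG was in 40 (59.7%, against 32.7%), the CCAAT box CCAAT in 24 (35.8%, against 33.9%) and the TATA box TATAAA in 3 (4.48%, against 12.4%). The median GC content was 61.2% in the member promoters and 52.4% in all promoters, and the GC box letters are themselves GC-rich. Of the 12 promoters of 10 members called in the knockout comparison, 9 held a GC box, 8 a CCAAT box, 2 the cyclic AMP element and 0 a TATA box. Those with the cyclic AMP element belong to Syn1, which was lower in the knockouts, and Stxbp3, which was higher. Vamp1, lower, and Stx4a, higher, each hold a GC box and at least 1 CCAAT box, and the 4 windows are printed 5′ to 3′ along the gene with every match in capitals (CCGCCC and ATTGG are the GC and CCAAT boxes on the opposite strand, and the last pair of GC boxes of Stx4a overlap). A match is a description of the letters in the window and was not tested as a binding site.
Syn1, chrX:20920919-20921168, minus strand: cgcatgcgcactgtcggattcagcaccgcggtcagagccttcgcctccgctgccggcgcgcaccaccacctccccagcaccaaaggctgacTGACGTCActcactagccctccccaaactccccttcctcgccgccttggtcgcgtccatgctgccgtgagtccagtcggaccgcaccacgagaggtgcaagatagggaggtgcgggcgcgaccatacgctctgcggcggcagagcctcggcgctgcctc
Stxbp3, chr3:108840503-108840752, minus strand: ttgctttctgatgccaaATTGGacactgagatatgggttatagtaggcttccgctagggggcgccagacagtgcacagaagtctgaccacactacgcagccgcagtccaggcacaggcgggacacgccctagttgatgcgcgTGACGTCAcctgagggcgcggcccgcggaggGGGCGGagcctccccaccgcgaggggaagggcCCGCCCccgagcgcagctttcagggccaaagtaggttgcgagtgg
Vamp1, chr6:125215331-125215580, plus strand: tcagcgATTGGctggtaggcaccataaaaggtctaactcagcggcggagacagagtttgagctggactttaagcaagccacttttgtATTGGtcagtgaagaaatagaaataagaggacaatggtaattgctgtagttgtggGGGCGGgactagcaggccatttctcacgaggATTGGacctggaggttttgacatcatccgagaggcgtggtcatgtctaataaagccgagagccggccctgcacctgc
Stx4a, chr7:127841558-127841807, plus strand: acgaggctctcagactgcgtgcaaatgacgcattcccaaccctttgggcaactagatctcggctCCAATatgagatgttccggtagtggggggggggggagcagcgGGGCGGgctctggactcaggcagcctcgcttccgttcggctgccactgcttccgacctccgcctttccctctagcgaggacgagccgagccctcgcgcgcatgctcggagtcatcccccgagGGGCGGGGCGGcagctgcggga

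Most release genes did not pass the test. Of the 57 tested members, 5 were higher in the knockouts (Syt1, Syt4, Stx4a, Stx6 and Stxbp3) and 7 lower (Stx5a, Stx18, Syt12, Snap47, Napa, Syn1 and Vamp1) at an adjusted p under 0.05. That is 21.1% of the members, against 24.4% of all 13375 genes tested. The shares by direction were 8.77% higher against 10.9%, and 12.3% lower against 13.4%. The members were therefore called about as often as genes in general, and their count is not a result about the set. The median log2 fold change was 0.01 over the members and -0.02 over all genes tested, and the median standard error of a member was 0.17. As a share of all reads in genes, the members took 0.813% ± 0.0521 (SD, n = 4) in knockouts and 0.825% ± 0.0259 (SD, n = 7) in controls, ranges that overlap.

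Values of knockouts and controls did not overlap in 8 tested members (14.0%), against 13.0% of all genes. Called members among them were Syt4, Stxbp3, Stx5a, Snap47 and Syn1, and the others were Stx12, Stx17 and Napg, named here after their values were seen. Within each of the 3 batches, the knockouts stood above the controls in 11 tested members (19.3%, against 16.4% of all genes) and below them in 8 (14.0%, against 17.8%). The fitted direction was kept by the ratio of means in all 3 batches in 9 of the 12 called members, the exceptions being Stx6, Stx4a and Vamp1 in batch 2. Syt1 counts among these 9 and the 11 above although its batch 2 values were nearly equal (45.4 CPM in the knockout, 45.3 CPM in the control). Without knockout M456, the shallowest library and the only knockout of batch 3, 0 members passed (12 had an unadjusted p under 0.05 by edgeR). Without M379, the only control of batch 1, just Syt4 and Syt12 did. With batch in the model, each of these fits lost the comparison of genotypes within that batch. With the library total or a score of the cell mixture as a covariate 0 members passed by edgeR (5 and 4 at an unadjusted p under 0.05). Without knockout M390 22 of 59 tested members passed, and without control M386 20 of 57. Batch 2 holds only these libraries, so leaving out either of them, or the whole batch, makes nearly the same comparison of genotypes. Calls over all genes moved in the same direction. They numbered 335 of 13760 without M456, 522 of 13282 without M379 and 0 with either covariate. Without M390 there were 4649 of 13764 and without M386 4615 of 13245, against 3257 of 13375 with all libraries.

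**Figure D1:**
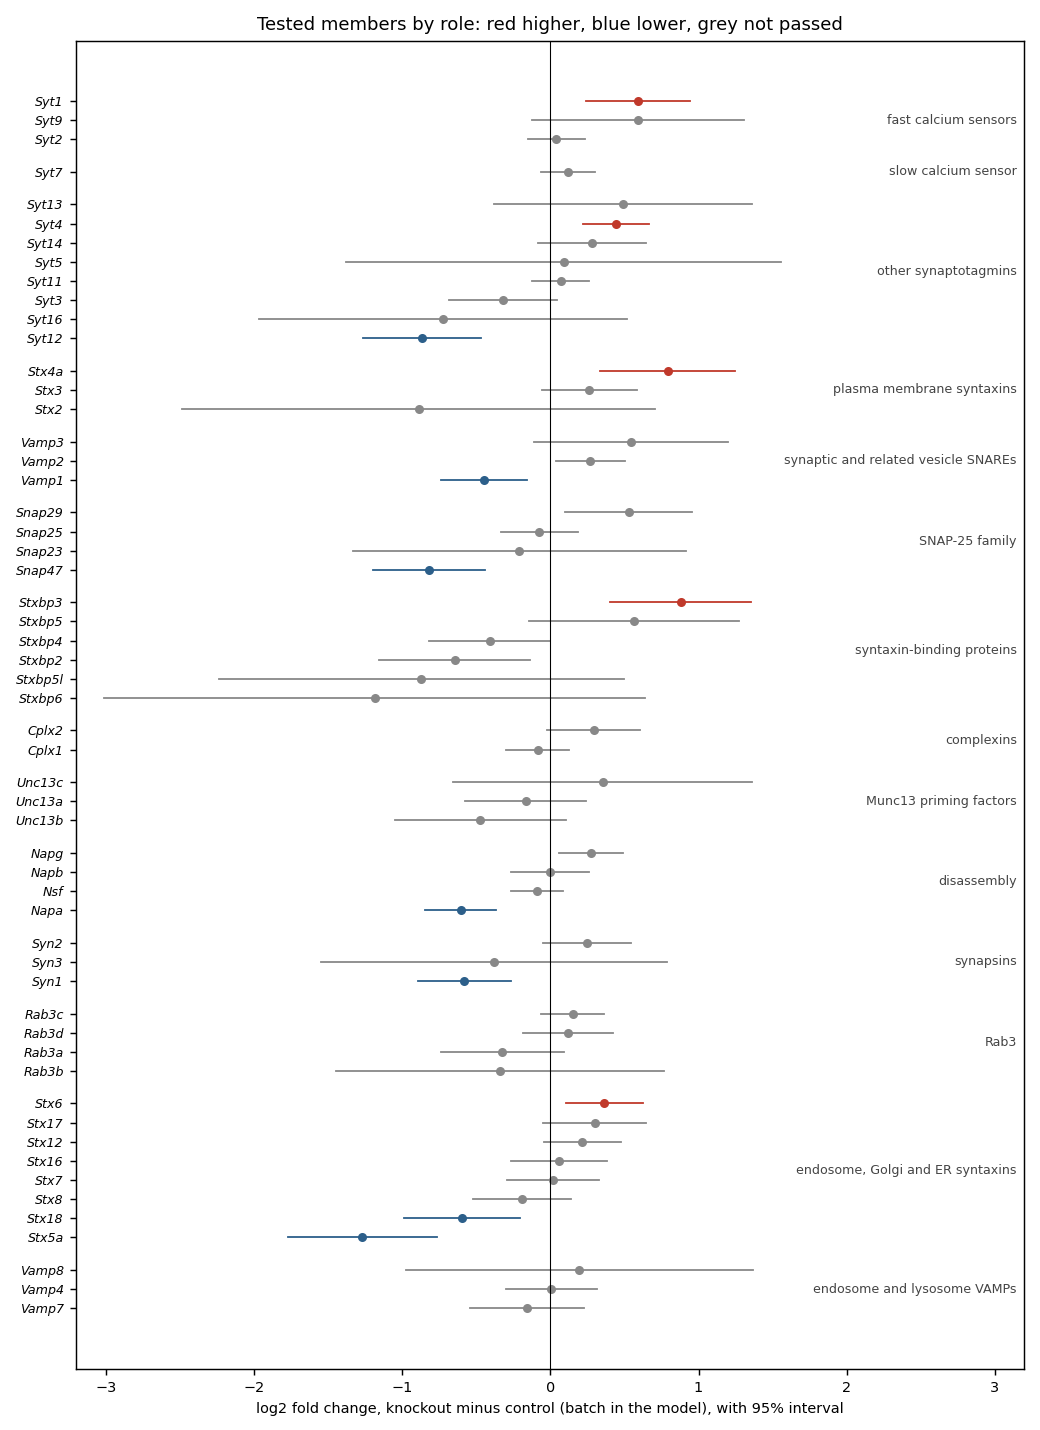
Log2 fold change (knockout minus control, batch in the model) with its 95% interval for the tested members, grouped by role. Red marks the 5 called higher, blue the 7 called lower and grey those that did not pass; most role groups hold points on both sides of 0.

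The calcium sensors of fast release are Syt1, Syt2 and Syt9, which bind calcium and trigger fusion within the synaptic delay. Syt1 rose by 0.59 ± 0.17 on the log2 scale (SE; edgeR quasi-likelihood test, adjusted p = 0.0191). It stood at 66.5, 89.1, 45.4 and 166.6 CPM in knockouts F371, M374, M390 and M456, and at 45.3 to 111.5 CPM in the controls with a median of 93.7 CPM. The groups overlapped, since controls M379 and M386 of the first 2 batches were lower than every control of batch 3, and the log2 ratios within batches were 0.74, 0.00 and 0.79. Without the batch term the call was lost, and the log2 fold change was 0.16 (adjusted p = 0.75). With the cell mixture score it was 0.08 (adjusted p = 0.93). The Syt1 locus overlaps Gm36601 and Gm5136.

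Syt2, the fast sensor of many hindbrain synapses, did not pass, with a log2 fold change of 0.04 (95% interval -0.15 to 0.23; edgeR adjusted p = 0.77). Its levels were 404.0, 367.6, 336.7 and 527.2 CPM in the knockouts and 385.1 to 475.9 CPM in the controls (median 447.3). Knockout M456 was above every control, M374 and M390 were below every control, and F371 lay among them. Syt9 had a log2 fold change of 0.59 ± 0.34 (SE), from few reads. Syt7, the slow, high-affinity sensor of asynchronous release, had one of 0.12 (interval -0.06 to 0.30) and levels of 381.1 to 637.7 CPM in the knockouts and 396.9 to 595.2 CPM in the controls.

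Among the 13 other synaptotagmins, 8 were tested, 1 rose and 1 fell. Syt4, which lacks fast calcium triggering and sits on dense-core and Golgi-derived vesicles, was at 527.6, 561.2, 439.2 and 530.4 CPM in the knockouts and 272.2 to 433.3 CPM in the controls (median 343.9). Every knockout lay above every control, by a narrow margin for M390. Syt4 rose by 0.44 ± 0.11 (log2, SE; edgeR adjusted p = 0.00874), with log2 ratios of 0.33, 0.14 and 0.70 by batch and a log2 fold change of 0.25 without knockout M456. Syt12, a synaptotagmin without calcium-binding residues, was at 61.5, 43.9, 77.5 and 38.5 CPM against 74.4 to 109.1 CPM (median 88.5), and knockout M390 overlapped with the lowest control. It fell by 0.87 ± 0.19 (adjusted p = 0.00599), with ratios of -0.74, -0.49 and -1.26. Its locus (chromosome 19, 4445908 to 4477143) overlaps A930001C03Rik, and whether reads were counted by strand is not given. Syt11, another family member without calcium triggering, had a log2 fold change of 0.07 (interval -0.12 to 0.26).

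**Figure D2:**
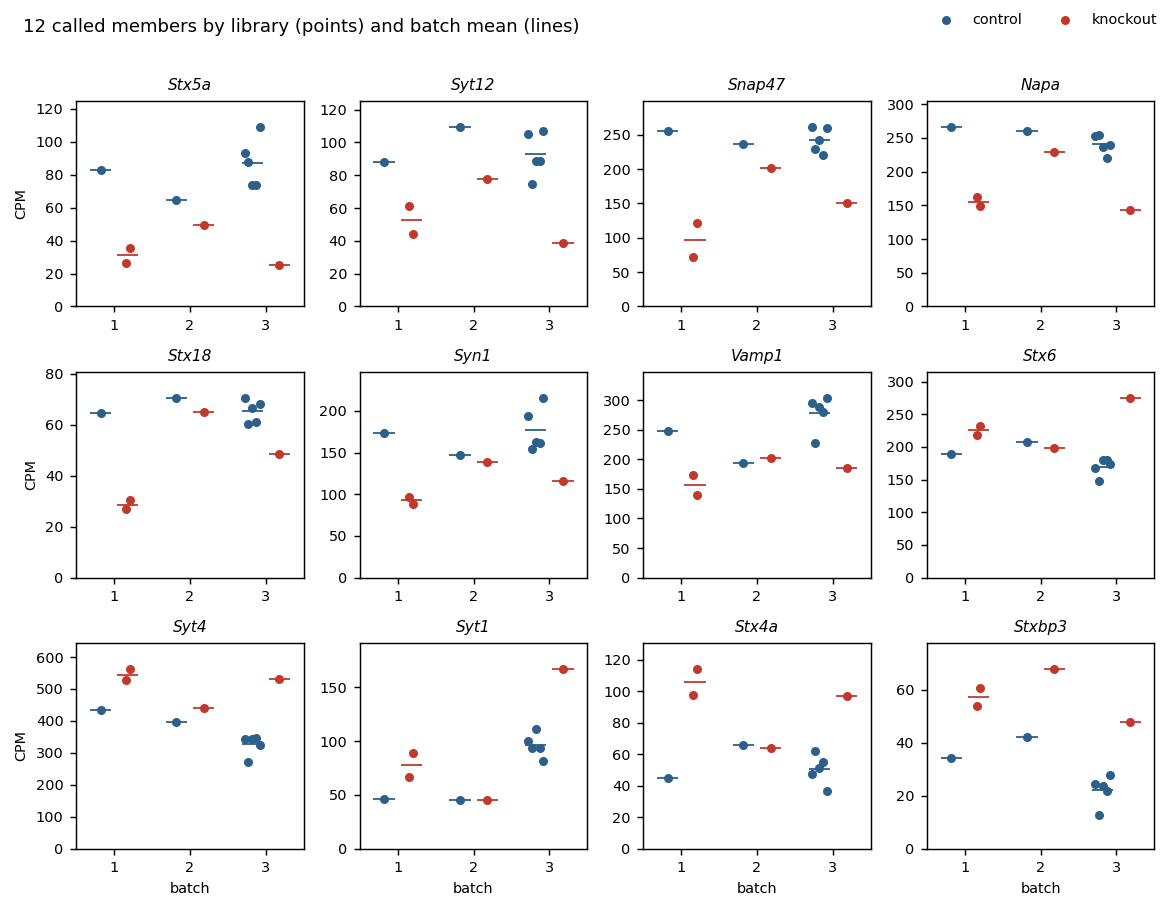
CPM of the 12 called members in each library by batch, controls in blue and knockouts in red, with lines at the batch means and every axis starting at 0. In batch 2 the knockout lies on the same side of its control as in batches 1 and 3 for 9 members, and on the other side for Stx6, Stx4a and Vamp1. Syt1 is counted among the 9, with nearly equal values in batch 2.

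Of the 7 plasma membrane syntaxins, the target-membrane SNAREs, 4 were tested and 1 rose. Stx4a, which serves constitutive and regulated exocytosis outside the active zone, was at 97.8, 113.7, 63.6 and 96.8 CPM in the knockouts and 36.3 to 65.7 CPM in the controls (median 50.9). Knockouts F371, M374 and M456 were above every control and M390 was just below its batch control. Stx4a (chromosome 7, 127840643 to 127850988) rose by 0.79 ± 0.21 (log2, SE; edgeR adjusted p = 0.0159), with ratios of 1.23, -0.05 and 0.94 by batch.

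Stx1a, a neuronal syntaxin, was below the filter and had 0 reads in the 4 knockouts against 58 in the controls, 55 of them in batch 3. In batch 3 it was at least 1.96-fold lower in the knockout, set against a floor of 3 counts in that library (1.20 CPM). Control M386 also had 0 reads. Stx1a was tested in 7 alternatives, where it cleared the count filter through the controls alone. It passed as lower in 3 of them: with a filter of at least 1 CPM in 4 libraries, without batch 2 and without knockout M390. The last pair make nearly the same comparison. With 0 reads in the knockouts the direction was fixed in advance, so these passes add no evidence of a fall. Stx3, with a log2 fold change of 0.26 ± 0.15, did not pass.

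Of the syntaxin-binding proteins, the partners of the syntaxins, 7 were tested and 1 rose. Stxbp3, the Munc18 protein that binds Stx4, was at 53.7, 60.6, 67.6 and 47.8 CPM in the knockouts and 12.6 to 42.1 CPM in the controls (median 24.2). No knockout overlapped with a control, and the ratios by batch were 0.73, 0.68 and 1.10. Stxbp3 (chromosome 3, 108793180 to 108840502) rose by 0.88 ± 0.22 (log2, SE; edgeR adjusted p = 0.0119). A pseudogene, Stxbp3-ps, had 2 reads in the knockouts and 3 in the controls. Stxbp4 had one of -0.41 ± 0.19 and Stxbp2 one of -0.65 ± 0.24, neither of which passed (adjusted p = 0.13 and 0.060). Without batch 2 both passed, at -0.68 and -0.94, and Stxbp2 also passed with thinned counts and by DESeq2.

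The vesicle SNAREs of synapses are Vamp1 and Vamp2, close relatives whose use differs by neuron type. Vamp1 was at 173.0, 139.6, 203.2 and 186.3 CPM in the knockouts and 194.7 to 303.4 CPM in the controls (median 281.0). In batches 1 and 3 each knockout was below its controls, and in batch 2 the knockout was slightly above (ratios -0.66, 0.06 and -0.58). Vamp1 (chromosome 6, 125215581 to 125222306) fell by 0.45 ± 0.14 (log2, SE; edgeR adjusted p = 0.0269), a call also lost without knockout M374. Vamp2 stood at 466.6, 429.0, 324.4 and 596.7 CPM against 354.6 to 423.7 CPM. Its log2 fold change of 0.27 ± 0.11 had an unadjusted p of 0.0269 and an adjusted p of 0.083, without knockout M456 it was -0.01, and without batch 2 it was 0.42 and passed. Vamp3 did not pass (0.55 ± 0.31).

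Of the SNAP-25 family, which supplies helices to the SNARE bundle, 1 of 4 genes passed. Snap47, an intracellular member of the family, was at 72.0, 122.0, 200.8 and 150.2 CPM in the knockouts and 220.7 to 260.7 CPM in the controls (median 243.0). Every knockout was below every control, F371 the furthest, and the ratios by batch were -1.39, -0.23 and -0.69. Snap47 fell by 0.82 ± 0.18 (log2, SE; edgeR adjusted p = 0.0058), and by 0.49 without control M379. Its locus on chromosome 11 (59407141 to 59450041) overlaps Jmjd4, and without the strand setting the reads of overlapping genes cannot be told apart. Snap25, the synaptic member, was at 269.6, 331.1, 408.3 and 429.3 CPM against 325.2 to 431.2 CPM, with a log2 fold change of -0.07 (interval -0.33 to 0.19). Snap29, which acts in autophagosome and endosome fusion, had one of 0.53 ± 0.20 (adjusted p = 0.065) and passed in 7 of 24 alternatives.

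Priming and clamping genes did not pass with all libraries in the fit. The complexins Cplx1 and Cplx2 had log2 fold changes of -0.08 (interval -0.30 to 0.13) and 0.29 (interval -0.02 to 0.61). Cplx2 was at 201.2 CPM in knockout M456 and at 99.2 to 112.2 CPM in the other knockouts, beside 96.6 to 146.9 CPM in the controls, and without batch 2 its log2 fold change was 0.50 and passed. Unc13a had one of -0.17 and Unc13c, a Munc13 of the cerebellum, one of 0.35, with intervals of -0.58 to 0.24 and -0.65 to 1.36. Unc13c varied more than most, from 30.2 CPM in knockout F371 to 139.0 CPM in M374 of the same batch, and from 31.8 to 133.8 CPM in the controls. For Rab3, 0 of 4 genes passed by edgeR (0 also at an unadjusted p under 0.05), with log2 fold changes from -0.34 to 0.15. Rab3c was at 293.1 to 381.5 CPM in the knockouts and 257.3 to 338.4 CPM in the controls.

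**Figure D3:**
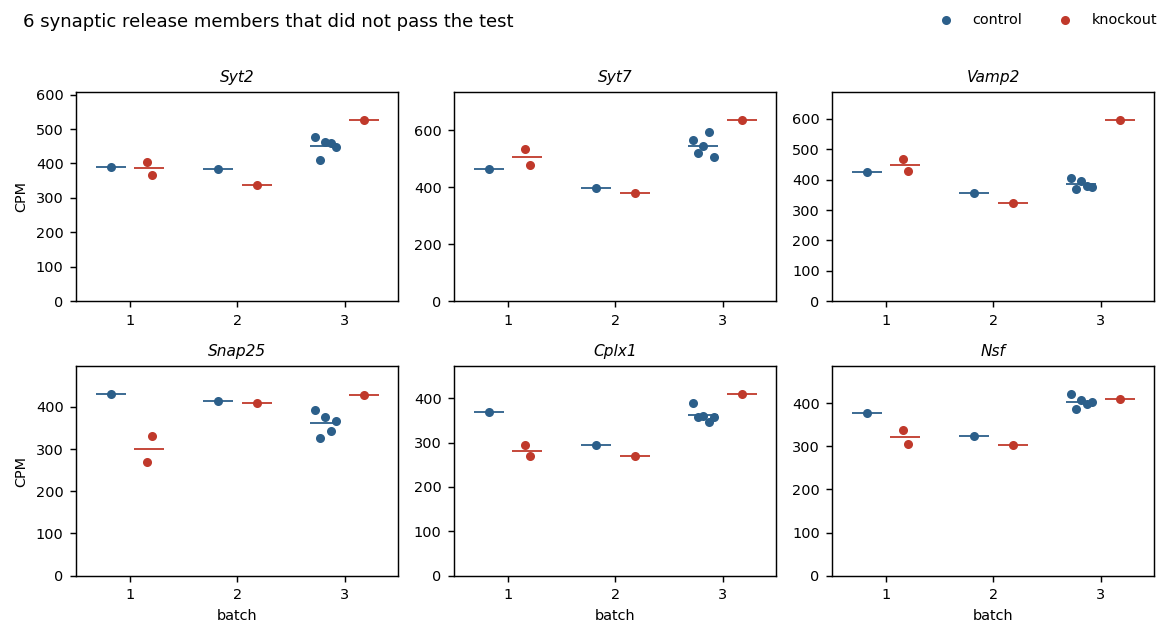
CPM by library and batch of 6 synaptic members that did not pass the test, drawn as in the plot of called members. Knockout M456 is the highest of the 4 knockouts in each panel, and knockouts and controls overlap in every panel.

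After fusion the ATPase Nsf and its adaptors recycle the SNAREs. Napa, which encodes alpha-SNAP, was at 161.9, 149.3, 229.9 and 143.8 CPM in the knockouts and 219.9 to 265.7 CPM in the controls (median 253.4). M390 fell inside the control range and the other knockouts lay well under it. Napa (chromosome 7, 16098202 to 16117982) fell by 0.61 ± 0.11 (log2, SE; edgeR adjusted p = 0.00338), with ratios of -0.77, -0.18 and -0.74. The neuronal beta-SNAP gene Napb had a log2 fold change of 0.00 on rounding (interval -0.26 to 0.26), and Nsf one of -0.09 (interval -0.27 to 0.08). Napg, the gamma-SNAP gene, did not overlap between groups but did not pass (0.27 ± 0.10, adjusted p = 0.062). It passed in 9 of 24 alternatives, at log2 fold changes of 0.27 to 0.34, among them other scalings, DESeq2 and the fits without batch 2 and without the batch term.

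Synapsins coat vesicles and hold them in the reserve pool. Syn1 was at 96.6, 88.8, 139.2 and 115.2 CPM in the knockouts and 146.6 to 214.9 CPM in the controls (median 162.8). Groups did not overlap, though the gap between M390 and its batch control was small (ratios -0.90, -0.07 and -0.62). Syn1 fell by 0.58 ± 0.15 (log2, SE; edgeR adjusted p = 0.0123), and by 0.39 without control M379. Its locus on chromosome X (20860511 to 20920918) overlaps Araf and Timp1. Syn2 had a log2 fold change of 0.25 (interval -0.05 to 0.55), and its locus overlaps Timp4, a gene of astrocytes. Syn3, at 7.34 CPM or less in every library, did not pass.

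Syntaxins of the endosome, Golgi and endoplasmic reticulum include the steepest fall of the set. Stx5a, the syntaxin of transport from the endoplasmic reticulum through the Golgi, was at 26.4, 35.6, 49.4 and 25.3 CPM in the knockouts and 64.5 to 108.8 CPM in the controls (median 83.1). All knockouts were below all controls. Stx5a (chromosome 19, 8741424 to 8755642, overlapping Mir6992 and 1700023D09Rik) fell by 1.27 ± 0.24 (log2, SE; edgeR adjusted p = 0.00322), with ratios of -1.41, -0.38 and -1.77. Stx18, which acts in retrograde traffic to the endoplasmic reticulum, was at 27.0, 30.3, 65.0 and 48.6 CPM against 60.2 to 70.3 CPM (median 66.7). M390 was within the control range, and Stx18 fell by 0.60 ± 0.18 (adjusted p = 0.0288). Its call was lost in 8 of 24 alternatives, among them the fits without any 1 of F371, M374, M379, M456 and F473, and without M379 its log2 fold change was -0.28. Its locus (chromosome 5, 38036729 to 38137770) overlaps Nsg1.

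Stx6, of the trans-Golgi network and endosomes, went the other way. It was at 217.7, 232.8, 198.0 and 274.3 CPM in the knockouts and 147.2 to 207.1 CPM in the controls (median 179.8), and only M390 lay within the control range. Stx6 (chromosome 1, 155158628 to 155207567, overlapping Gm8850) rose by 0.36 ± 0.12 (log2, SE; edgeR adjusted p = 0.0411), with ratios of 0.25, -0.06 and 0.69. It was the least stable call among the 12 members, lost in 11 of 24 alternatives, and without knockout M456 its log2 fold change was 0.11. Stx12 and Stx17, of the same role group, did not overlap between knockouts and controls and did not pass (0.22 ± 0.12 and 0.30 ± 0.16). Of the 6 endosome and lysosome VAMPs, which include the pseudogene Vamp7-ps, 3 were tested and 0 passed by edgeR (0 at an unadjusted p under 0.05). Vamp4 was at 0.01 (interval -0.30 to 0.31) and Vamp7 at -0.16 (interval -0.54 to 0.23). Vamp9, under the filter, had 6 reads in the knockouts, all in M390, and 64 in the controls. It was tested in 7 alternatives and passed as lower in 2, with at least 1 CPM in 4 libraries and without knockout M390. The controls alone meet the first of these filters, and leaving out M390 left 0 reads in the knockouts. These passes therefore add no evidence of a fall.

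The reads of a pair of related genes can be set against each other inside each library, which leaves out the library total. Shares of reads depend on gene length as well as on abundance and are compared only between groups. Snap47 took 26.7% ± 4.89 of the reads of Snap47 and Snap25 in knockouts and 39.2% ± 1.93 in controls (SD over 4 and 7 libraries). The highest knockout, 33.0%, was below the lowest control, 36.3%, and the differences by batch were -13.2, -3.32 and -14.3 percentage points. Vamp1 took 28.5% ± 6.84 of the pair with Vamp2 in the knockouts and 40.3% ± 3.45 in the controls. Its differences by batch were -11.1, 3.08 and -18.2 points, so the knockout of batch 2 went the other way.

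Syn1 took 44.9% ± 7.04 against 55.97% ± 6.78 of the pair with Syn2, with differences by batch of -20.3, -1.87 and -16.2 points. Napa took 36.0% ± 7.20 against 44.6% ± 4.49 of the pair with Napb, with differences of -10.1, -1.87 and -14.7 points. Rab3a took 7.75% ± 0.778 against 10.4% ± 1.39 of the pair with Rab3c, and its highest knockout (8.87%) was below the lowest control (9.15%). For Syt2 with Syt1, Cplx1 with Cplx2 and Unc13c with Unc13a, the shares were 82.6% against 84.5%, 70.9% against 74.5% and 51.7% against 47.7%, and the ranges overlapped. No test was run on these shares.

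**Figure D4:**
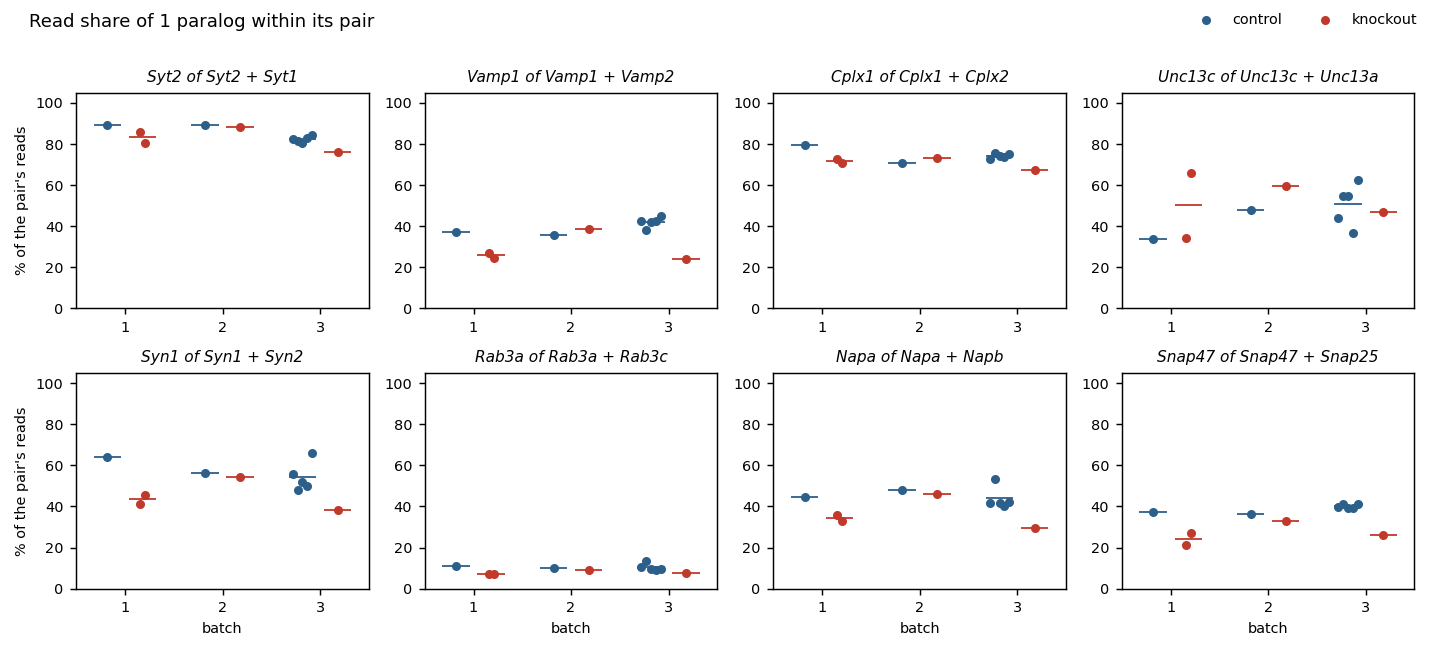
Percent of a pair's reads that fell on the first gene named, by library and batch, for 8 paralog pairs (controls blue, knockouts red, lines at the batch means). The Snap47 and Rab3a shares of the knockouts lie below all controls, and in batch 2 knockout and control are closer together than in batches 1 and 3 for Vamp1, Syn1, Napa and Snap47.

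Across the 26 tested members with a mean of at least 100 CPM in the controls, 6 were called. The share called among all genes at that level was not counted, and over all genes tested it was 24.4%. Of these 26 members, 15 had a 95% interval lying within -0.5 to 0.5 on the log2 scale. Over all 57 tested members 16 had such an interval. At the other end 8 tested members had a mean under 10 CPM in the controls and wide intervals, for instance Stx2, whose log2 fold change of -0.89 ± 0.75 came with an interval of -2.49 to 0.71. Only Stx5a, called, and Stxbp6, not called (-1.19 ± 0.86), had an absolute log2 fold change of at least 1.

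Of 70 other genes of the release pathway 63 were tested, 6 were higher and 10 lower. That is 25.4% of those tested, near the 24.4% of all genes (9.52% higher against 10.9%, and 15.9% lower against 13.4%). The vesicle protein gene Syngr3 fell by 0.88 ± 0.14 on the log2 scale (SE; edgeR adjusted p = 0.00206), and the Sec1/Munc18 gene Scfd1, a partner of Golgi syntaxins such as Stx5, by 0.73 ± 0.15 (adjusted p = 0.00425). Of the 9 exocyst genes, which tether vesicles at the plasma membrane, 4 fell and 0 rose: Exoc4 (-1.09 ± 0.25), Exoc6b (-0.47 ± 0.12), Exoc1 (-1.09 ± 0.30) and Exoc7 (-0.39 ± 0.13), the last pair named after their values were seen. The median of the exocyst genes was -0.03, and Exoc6 and Exoc5 were at 0.55 ± 0.20 and 0.36 ± 0.16 without passing. With 9 genes, and 13.4% of all genes lower, this count was not tested. The active zone genes Erc1 and Ppfia1 rose by 0.84 ± 0.22 and 0.69 ± 0.18, and the vesicular GABA transporter gene Slc32a1 by 0.46 ± 0.15. The Slc32a1 call was lost in 13 of 24 alternatives, and its log2 ratios by batch were 0.90, -0.05 and 0.41. Without the batch term Erc1, Ppfia1, Slc32a1 and Scfd1 did not pass, at log2 fold changes of 0.31, 0.44, 0.06 and -0.45. Cadps2, a priming factor for dense-core vesicles that granule cells also express, rose by 1.31 ± 0.37 and was at -0.08 with the cell mixture score as a covariate.

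Depth and cell mixture moved with genotype in these libraries. Log2 fold changes follow without an added covariate, with the library total and with the cell mixture score as a covariate, in that order. They were 0.88, 0.91 and 0.57 for Stxbp3, -0.82, -0.77 and -0.76 for Snap47, and -1.27, -0.76 and -1.06 for Stx5a. Vamp1 was at -0.45, -0.13 and -0.19, Stx6 at 0.36, 0.10 and 0.15, and Syt1 at 0.59, 0.24 and 0.08. All 12 called members kept the direction of their fold change in all 24 alternatives. In none of these fits with a covariate did a member pass (edgeR adjusted p from 0.28 to 0.93 for the 12), and 0 of all 13375 genes passed. The part of depth and cell mixture in the calls was not tested. The score was higher in the knockouts of each batch. In batch 1 the knockouts were at -3.32 and -2.67 and the control at -4.10. Batch 2 had -3.95 in the knockout and -4.19 in the control, and batch 3 had -2.44 beside controls at -3.41 to -2.93.

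**Figure D5:**
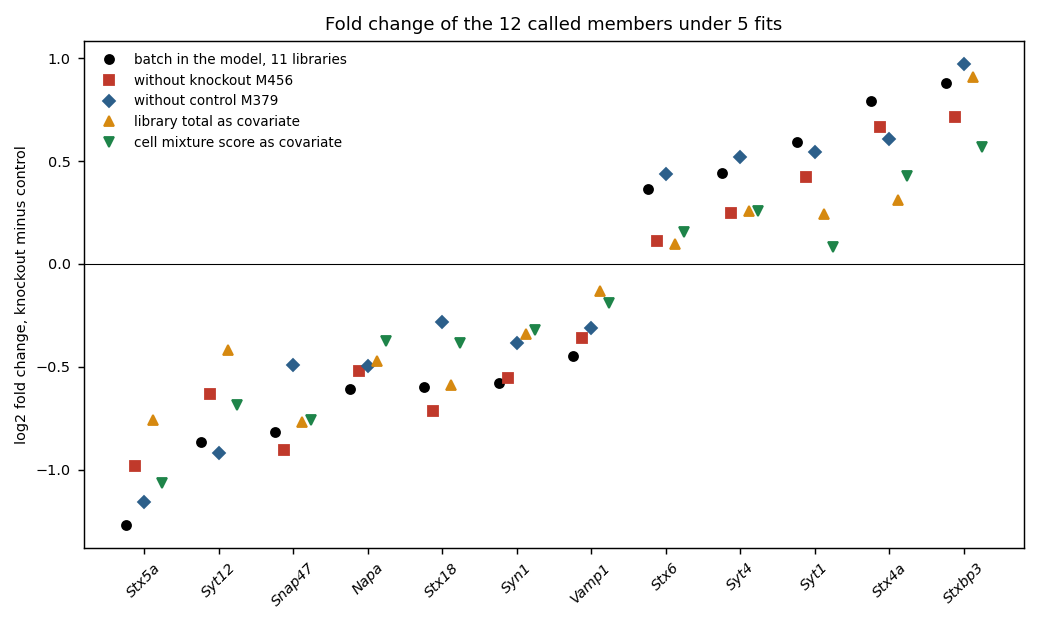
Log2 fold change (knockout minus control) of the 12 called members in 5 fits: all 11 libraries with batch, without knockout M456, without control M379, with the log2 library total as covariate and with the cell mixture score as covariate. Every point keeps its side of 0, and Syt1, Stx6 and Vamp1 come closest to 0 with a covariate.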

How the data were processed

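Each of the 11 deposited files listed the whole-number count of reads on each gene in 1 library, made by the authors with STAR alignment to GRCm38 and HTSeq counting, per the submitters' processing notes. Versions, the strand setting and any duplicate removal were not given in the sources used here. Each file's 5 summary lines that name no gene (reads outside genes were 6.11% to 12.0% of all counted) stayed out of totals and tests. No pair of libraries agreed within sampling noise (smallest chi-square per degree of freedom 2.40). Labels give separate animal tags, and beyond these nothing says how far p-values measure more than technical spread.

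Genes were tested with edgeR 4.0.16 (R 4.3.3): filterByExpr on group, TMM scaling, a quasi-likelihood fit of genotype plus batch with 7 residual degrees of freedom, and Benjamini-Hochberg adjustment over all 13375 genes tested at a two-sided threshold of 0.05. The standard error is the fold change over the root of F. CPM is the count scaled to a common TMM-adjusted total, not per gene length, so levels of different genes were not compared. Group means are not adjusted for batch. Ratios within batches used means plus 0.5 CPM and were not tested, since batches held 2 against 1, 1 against 1 and 1 against 5 libraries. Intervals are at 95%. The floor of 3 counts covers counting error only. The model was tested on simulated data for 13375 genes, 200 of them changed. It called 59% of the 2-fold and 77% of the 4-fold changes, 0 in the wrong direction, and 6 unchanged genes. A gene that did not pass may therefore still differ.

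The members, the 70 other release genes, the markers and the role groups were chosen with earlier results of these data known. Named genes were every called member, the 2 members of each role with the highest mean CPM in controls, the genes of the 9 paralog pairs and, of the other release genes, up to 4 called each way with the smallest p. Snap29, Stx2, Stx17, Stxbp2, Stxbp6, Syn3, Syt9, Vamp3, Vamp9, Napg, Exoc1, Exoc5, Exoc6 and Exoc7 fall outside this rule and were named after their values were seen. The cell mixture score is the mean log2 CPM (prior count 2) of granule cell, astrocyte and oligodendrocyte markers minus that of Purkinje markers. Alternatives covered scaling, filters, batch, depth, cell mixture, each library left out, DESeq2 1.42.0 and limma 3.58.1. The fits without batch 2, without M390 and without M386 make nearly the same comparison but are counted separately in the tallies of alternatives. Some named members and 1 paralog pair are counted in the totals and are not reported here. Positions and promoters are from RefSeq, GRCm38.p6.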

Additional observations from a re-analysis of the deposited data

Results flagged for a closer look

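Of 85 groups of values examined for a sample far from the others, 5 held one, where chance flags about 1 in 20. Cplx2 was at 201 CPM in knockout M456, against 112 CPM in the next knockout. Rab3c was at 257 CPM and Stx12 at 173 CPM in control M476, against 305 and 258 CPM in the next lowest controls. Stx3 was at 91.3 CPM in control M386, against 69.6 CPM in the next control. Unc13c was at 134 CPM in control M480, against 71.3 CPM in the next control.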

How the results depend on the processing

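Members higher in the knockouts numbered 5 and ranged from 0 to 10 with each library left out; they numbered 10 without batch 2, and 1 and 8 at thresholds of 0.01 and 0.1. Members lower numbered 7 and ranged from 0 to 12, with 11 without batch 2 and 4 at 0.01. All genes called ranged from 335 to 4649 with each library left out and numbered 1271 at 0.01. Other release genes higher ranged from 1 to 13, with 13 without batch 2, 11 by DESeq2, and 0 and 14 at 0.01 and 0.1; those lower ranged from 1 to 13, with 6 in animals tagged M only and 3 at 0.01. With the library total or the cell mixture score as a covariate each of these 5 counts was 0 by edgeR (1841 and 1176 of all genes had an unadjusted p under 0.05). Thinned to the smallest library, 13 members and 3229 of all genes were called, against 12 and 3257. Among the fits with 1 library left out, the lowest counts of members came without knockout M456 (0) and control M379 (2). These are the only knockout of batch 3 and the only control of batch 1, so each fit lost that batch's comparison of genotypes. Whether anything else about the libraries lowered the counts was not tested.

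Among named genes a log2 fold change turned sign in the following cases, and apart from Cadps2 none was called in either fit. With the library total these were Cplx2 -0.151, Stx3 -0.0825, Stxbp4 0.0860, Syt11 -0.184, Syt2 -0.107, Unc13a 0.0430, Vamp2 -0.0921 and Vamp7 0.177. With the mixture score these were Cplx1 0.0192, Stx12 -0.00291, Syt2 -0.0165, Unc13c -1.04, Vamp4 -0.134 and Cadps2 -0.0845. Without the batch term these were Syn2 -0.00538, Syt2 -0.0847, Syt7 -0.0181 and Vamp7 0.229. With batch as a random block these were Syt2 -0.0521 and Vamp7 0.0841. Napb was at 0.0125 with DESeq2 size factors and with DESeq2's own test, 0.0129 with at least 1 CPM in 4 libraries, 0.0137 with thinned counts and 0.0471 without batch 2. In animals tagged M only Napb was at 0.0617 and Snap25 at 0.0368. Vamp4 was at -0.00519 without a filter and -0.0864 by limma-voom. With each library left out the values ranged from -0.280 to 0.0868 for Cplx1, -0.0169 to 0.505 for Cplx2, -0.120 to 0.0951 for Napb, -0.0804 to 0.319 for Rab3d, -0.311 to 0.168 for Snap25, -0.0593 to 0.154 for Syt11, -0.0957 to 0.148 for Syt2, -0.158 to 0.915 for Unc13c, -0.0108 to 0.421 for Vamp2 and -0.0879 to 0.116 for Vamp4.

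No block by replicate number was fitted, since the labels give animal tags and no numbers shared between the groups; batch, which holds both groups, was a term of the model.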
